A study of Mus musculus with 9 samples.

Results

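The 10 genes described here belong to the NRF2 antioxidant pathway and were chosen by name from the 55228 gene rows of an RNA-seq count table. They are *Nfe2l2*, *Keap1*, *Nqo1*, *Hmox1*, *Gclc*, *Gclm*, *Txnrd1*, *Srxn1*, *Slc7a11* and *G6pdx*, and all 10 were among the 15253 genes that passed the filter on low counts. Earlier results of these data were known when these genes were chosen. The table holds 9 libraries of HC11 cells, a mouse mammary epithelial line from a BALB/c animal. Of these, 3 are parental cells (*WT*), 3 are the line labelled *Vangl2* knockout 1 (*KD1* in the study) and 3 are the line labelled *Vangl2* knockout 2 (*KD2*). *Vangl2* encodes a planar cell polarity protein of the plasma membrane. All cells were undifferentiated and untreated, and their growth medium held FBS at 10%, insulin at 5 µg/mL and EGF at 10 ng/mL. Each *KD* line was grown from an isolated colony after CRISPR/Cas9 nucleofection of HC11 cells with a guide RNA to *Vangl2* and a repair template carrying stop codons, so each line is a single clone. No cloned line without an edit of *Vangl2* was analysed here, so the edit and the cloning cannot be told apart in any comparison with *WT*. The labels give replicate numbers and do not say that replicates were independent cultures, so p-values measure the spread between these libraries, which may be technical.

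NRF2, the protein of *Nfe2l2*, is a transcription factor that is normally bound by KEAP1 and handed to a CUL3 ubiquitin ligase for destruction. Oxidants and electrophiles modify cysteines of KEAP1, NRF2 then accumulates, pairs with a small MAF protein and binds antioxidant response elements. Its classical targets make glutathione, reduce thioredoxin, detoxify quinones, degrade haem and supply NADPH, and they protect epithelial cells, mammary epithelium included, from oxidative damage. Much of the control of NRF2 acts on the protein, which was not measured in these libraries.

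The antioxidant response element has the core TGACNNNGC, where N is any base. It was searched on both strands of the RefSeq promoter windows of GRCm38.p6, each from 250 bases before to 50 bases after an annotated start. Of the members, 8 had a window, and *Hmox1* and *Gclc* had none. The core was present in 5 of the 10 windows of members, among them 1 of the 3 windows of *Txnrd1*, and in 12.4% of all 32851 windows. The sites are shown because these members moved in different directions between the lines. Each is written from 5′ to 3′ on the strand that carries the core, which is in capitals.
*Nfe2l2* (chr2:75704885-75704913, minus strand): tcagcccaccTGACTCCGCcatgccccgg
*Srxn1* (chr2:152105542-152105570, minus strand): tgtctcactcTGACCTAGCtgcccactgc
*Gclm* (chr3:122245413-122245441, minus strand): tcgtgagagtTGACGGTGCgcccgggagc
*Txnrd1* (chr10:82859104-82859132, minus strand): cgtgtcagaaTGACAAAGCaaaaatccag
*G6pdx* (chrX:74428919-74428947, plus strand): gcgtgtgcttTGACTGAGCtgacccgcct
The *Nfe2l2* site lies 240 bases before the start, in an exon of *E030042O20Rik* on the other strand, and the *Gclm* site lies 134 bases before the start, outside any annotated gene. The *Txnrd1* site is in an intron, 92 bases before an internal start. The *G6pdx* site lies 57 bases before the RefSeq start and in a GENCODE exon of *G6pdx*, and the *Srxn1* site lies in the *Srxn1* exon, 28 bases after the start. No match in the windows of *Keap1*, *Nqo1* and *Slc7a11* says only that these letters are not there, and a match is not a shown binding site.

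Libraries held 19231428 to 28360592 counts. No member had fewer than 28 counts in any library. Values are given in CPM, the count relative to the TMM-scaled library size, which is a scaled share of the counts assigned to genes. Fewer cells with a transcript and less of it per cell therefore cannot be told apart. Chi-square values per degree of freedom between replicates over all genes were 1.37 to 1.81 in *KD1* and 3.38 to 13.1 in *WT*. In *KD2* they were 1.74 between replicates 1 and 2 and 17.4 and 22.1 between these and replicate 3, so *WT* replicate 1 and *KD2* replicate 3 stood apart from their lines. *Vangl2* itself was at 3.85 ± 0.421 CPM (SD, n = 3) in *WT*, 2.48 ± 0.513 in *KD1* and 4.00 ± 0.399 in *KD2*, so that its transcript level does not check the *KD2* label. The study checked its clones at the protein level by Western blot, which is not analysed here. Of 10 mammary epithelial markers, 9 had more than 3 counts in at least 1 library of each line, and *Krt19* had at most 3 in any library. *Elf5* was low, at 0.236 ± 0.0947 CPM (SD, n = 3) in *WT*, 0.509 ± 0.287 in *KD1* and 1.72 ± 0.279 in *KD2*. The summed level of the 10 markers was 5068 to 5658 CPM in *WT*, 5860 to 6015 in *KD1* and 3049 to 3738 in *KD2*. Most of this sum is *Krt5* and *Krt14*, which fell in *KD2* from 2117 ± 139 to 1088 ± 139 CPM (SD, n = 3) and from 1527 ± 90.7 to 819 ± 120 CPM, while *Krt8* rose from 158 ± 21.5 to 268 ± 29.7 CPM. Against *WT*, at an adjusted p under 0.05, 4 of the 9 tested were higher and 0 lower in *KD1*. In *KD2*, 2 of them were higher and 5 lower. The shares of all genes tested were 26.9% higher and 30.0% lower in *KD1*, and 34.0% and 33.3% in *KD2*. Of 6 fibroblast markers, the summed level was 13.98 to 19.8 CPM in *WT*, 8.07 to 10.1 in *KD1* and 87.7 to 97.2 in *KD2*, with *Lum* at or under 3 counts in every library and *Dcn* so in *WT* and *KD1*. *Pdgfrb* alone made most of the *KD2* sum, at 66.8 ± 5.02 CPM against 0.823 ± 0.236 in *WT*. *Pdgfra* (16.4 ± 0.183 against 7.96 ± 1.01 CPM) and *Col1a2* (3.09 ± 0.202 against 1.17 ± 0.393) were also higher in *KD2*. *Col1a1* was lower there, at 4.38 ± 0.600 against 7.03 ± 1.56 CPM. Of the 4 fibroblast markers tested, at the same limit and beside the same shares, in *KD1* 0 were higher and 3 lower. In *KD2*, 3 were higher and 1 lower. The summed levels of the leukocyte, endothelial and adipocyte lists were at most 8.53, 5.58 and 2.94 CPM in any library, and *Ptprc*, the defining leukocyte gene, had at most 3 counts in all 9. The part of these shifts in the results on NRF2 genes was not tested.

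Against *WT*, 8 of the 10 genes changed in *KD1*, 5 higher and 3 lower, at an adjusted p under 0.05. Of all genes tested, 56.9% passed the same limit in *KD1*, 26.9% higher and 30.0% lower. In *KD2*, 9 of the 10 changed, 6 higher and 3 lower, where 67.2% of all genes passed, 34.0% higher and 33.3% lower. With a fold change above 2 required as well, 1 member remained in *KD1* (*Nqo1*, higher), against 16.8% of all genes, 9.34% higher and 7.49% lower. In *KD2* it was 2 (*Nqo1*, higher, and *Slc7a11*, lower), against 21.2%, 14.5% higher and 6.71% lower. The members' median log2 fold change was 0.27 in *KD1* and 0.19 in *KD2*, and that of all genes tested was -0.03 and 0.01. Between the lines, all 10 genes differed, with 4 up and 6 down in *KD2* relative to *KD1*, where 67.8% of all genes did, 34.8% up and 33.0% down. The call of *Keap1* was lost in 5 of 17 alternatives. Of the 10, 3 differed by more than 2-fold (*Gclc* up, *Slc7a11* and *G6pdx* down), against 23.3% of all genes, 14.7% up and 8.58% down. The libraries did not overlap for 8 members in *KD1* against *WT*, 9 in *KD2* against *WT* and 10 in *KD2* against *KD1*. Of all genes tested, 68.8%, 67.9% and 71.6% did not overlap in these comparisons. Directions differed among the members. *Nqo1*, *Hmox1*, *Gclm* and *Txnrd1* were higher than *WT* in each line, *Gclc*, *Srxn1* and *G6pdx* moved in opposite directions in the lines, and *Slc7a11* fell in *KD2*. The *Txnrd1* rise in *KD2* lost its call in 3 of 17 alternatives.

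**Figure D1:**
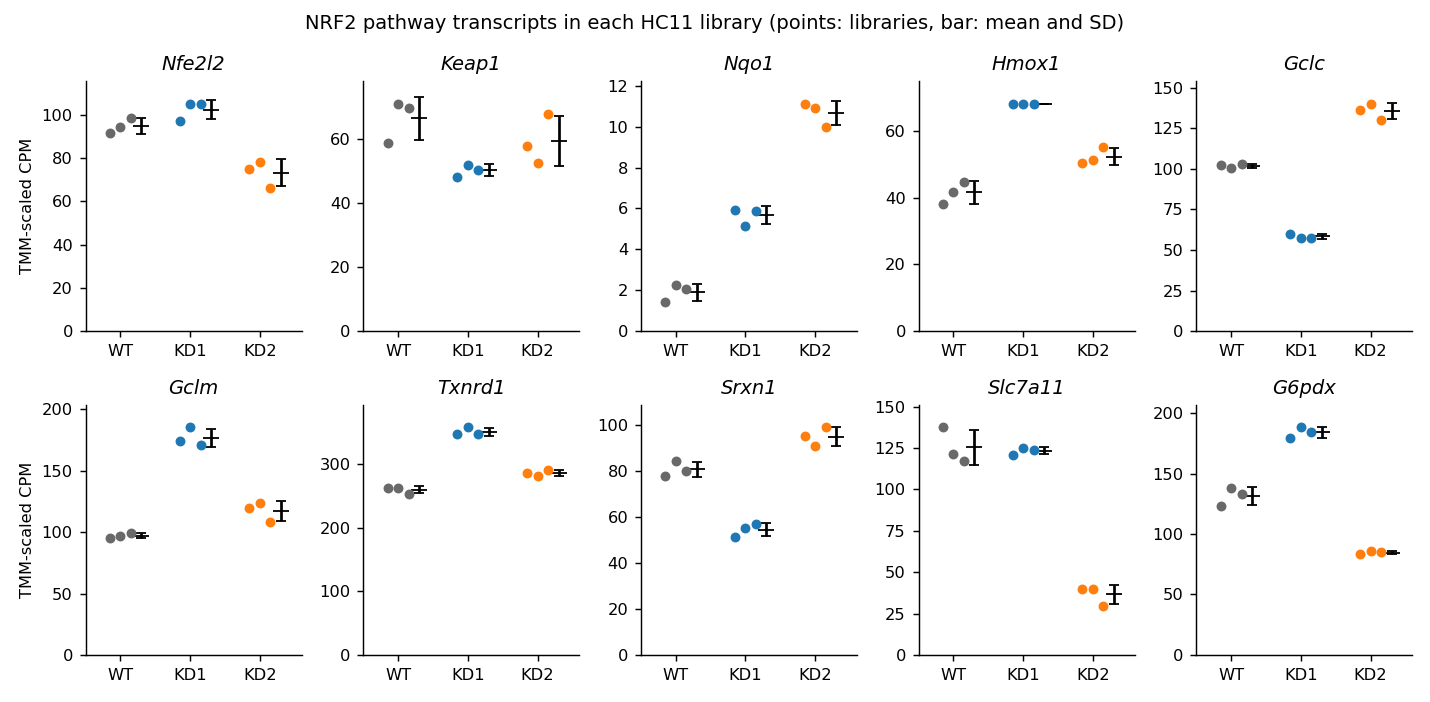
TMM-scaled CPM (linear axis from 0, a separate scale for each gene) of the 10 NRF2 pathway genes in each library of *WT*, *KD1* and *KD2*. Points are libraries, and the black bar beside them is the mean with its SD over 3 libraries. *Nqo1* steps up from *WT* (at most 2.24 CPM) to *KD1* and *KD2*, and *Slc7a11* is low in *KD2* (at most 40.0 CPM).

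*Nfe2l2*, which encodes NRF2 (ENSMUSG00000015839, chromosome 2, 75675513 to 75704641, GRCm38), was at 91.3, 94.4 and 98.4 CPM in *WT*, 97.2, 104.7 and 105.0 in *KD1* and 75.1, 78.2 and 66.1 in *KD2*. The *KD2* libraries were the lowest, below every library of the other lines, and the ranges of *WT* and *KD1* overlapped. In *KD1* the log2 fold change was 0.11 (standard error 0.0690, edgeR adjusted p = 0.187). In *KD2* it was -0.37 (standard error 0.0696, edgeR adjusted p = 3.18e-04). The *KD1* value passed the threshold when the 6 libraries compared were fitted alone (log2 fold change 0.15, edgeR adjusted p = 0.00920). It also passed without *KD2* replicate 3 (0.13, edgeR adjusted p = 0.0167). The other genes tested on chromosome 2 had a median of -0.16 in *KD1* and 0.14 in *KD2*, and the 17 within 2 Mb had -0.11 and -0.20.

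*Keap1*, the adaptor that targets NRF2 for destruction (ENSMUSG00000003308, chromosome 9, 21229730 to 21239361), was at 58.6, 70.9 and 69.7 CPM in *WT*, 48.2, 51.9 and 50.1 in *KD1* and 57.7, 52.6 and 67.8 in *KD2*. All *KD1* libraries lay below all others, and *WT* and *KD2* overlapped. In *KD1* the log2 fold change was -0.41 (standard error 0.0932, edgeR adjusted p = 0.00191), and in *KD2* it was -0.17 (standard error 0.0928, edgeR adjusted p = 0.128). The 67 genes tested within 2 Mb of *Keap1* had a median of -0.43 in *KD1*, and the other genes tested on chromosome 9 had -0.11. The *KD2* value varied with the setting, from -0.36 to -0.06 over 17 alternatives, with adjusted p from 1.08e-08 to 0.607. It was -0.06 with scaling by library size alone (edgeR adjusted p = 0.607) and passed the threshold in 4 alternatives. With no filter beyond 1 count it was -0.20 (edgeR adjusted p = 0.0309). It was -0.25 without *WT* replicate 1 (edgeR adjusted p = 0.0305) and -0.25 without *KD2* replicate 3 (edgeR adjusted p = 0.00561). With both left out, a setting added after seeing the data, it was -0.36 (edgeR adjusted p = 1.08e-08). The difference of *KD2* from *KD1* was 0.24 (standard error 0.0932, edgeR adjusted p = 0.0335), and it lost its call with DESeq2 (adjusted p = 0.0667) and without any single *KD1* library or *KD2* replicate 3 (edgeR adjusted p = 0.0561 to 0.123). *Gm16754* overlaps 10.9% of the exon length of *Keap1* on the other strand, and it had at most 50 counts in any library.

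*Nqo1*, a quinone reductase and a widely used readout of NRF2 (ENSMUSG00000003849, chromosome 8, 107388225 to 107403206), had the widest range of line means among the members. Its counts were 28, 56 and 42 in *WT*, 161, 131 and 146 in *KD1* and 275, 327 and 203 in *KD2*. Scaled to CPM, these were 1.43, 2.24 and 2.05 CPM in *WT*, 5.94, 5.15 and 5.89 in *KD1* and 11.1, 10.9 and 9.99 in *KD2*. The lines did not overlap, with *WT* lowest and *KD2* highest. *Nqo1* rose with a log2 fold change of 1.55 in *KD1* (standard error 0.153, edgeR adjusted p = 1.04e-06), which is 2.93-fold. In *KD2* the log2 fold change was 2.47 (standard error 0.145, edgeR adjusted p = 4.75e-09), or 5.52-fold, and *KD2* stood above *KD1* by 0.91 (standard error 0.121, edgeR adjusted p = 1.24e-05). Per kb of exon it remained a minor transcript, at 1.23 ± 0.271 CPM per kb (SD, n = 3) in *WT* and 6.87 ± 0.384 in *KD2*.

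*Hmox1*, haem oxygenase 1 (ENSMUSG00000005413, chromosome 8, 75093621 to 75100589), was at 38.0, 41.9 and 44.9 CPM in *WT*, 68.1, 68.2 and 68.1 in *KD1* and 50.6, 51.2 and 55.1 in *KD2*. Here the order of the *KD* lines was the opposite of that of *Nqo1*, with *KD1* highest, and no line overlapped another. *Hmox1* rose by a log2 fold change of 0.71 in *KD1* (standard error 0.0674, edgeR adjusted p = 6.67e-07) and 0.33 in *KD2* (standard error 0.0680, edgeR adjusted p = 7.00e-04). It was lower in *KD2* than in *KD1*, with a log2 difference of -0.38 (standard error 0.0662, edgeR adjusted p = 1.48e-04). The genes tested on chromosome 8, where *Nqo1* and *Hmox1* lie, had a median log2 fold change of -0.27 in *KD1* and -0.19 in *KD2*, so that both rises went against their chromosome.

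*Slc7a11* encodes xCT, the transporter that exchanges glutamate for cystine, the source of cysteine for glutathione (ENSMUSG00000027737, chromosome 3, 49892526 to 50443614). It was at 137, 121 and 117 CPM in *WT* and 121, 125 and 124 in *KD1*, and at 40.0, 40.0 and 29.8 in *KD2*. All *KD2* libraries lay far below the rest, and *WT* and *KD1* overlapped. The log2 fold change was -1.77 in *KD2* (standard error 0.0992, edgeR adjusted p = 3.00e-09), a level 3.41-fold lower. In *KD1* it was -0.02 (standard error 0.0937, edgeR adjusted p = 0.856). The direct difference of *KD2* from *KD1* was -1.75 (standard error 0.0989, edgeR adjusted p = 1.93e-09). The 15 genes tested within 2 Mb of *Slc7a11* had a median of -0.08 in *KD2*. *Slc3a2*, the heavy chain that pairs with xCT, was named after its values were seen. It fell in each line, from 751 ± 30.4 CPM (SD, n = 3) in *WT* to 324 ± 5.11 in *KD1* and 334 ± 35.3 in *KD2*, with log2 fold changes of -1.21 and -1.17 (edgeR adjusted p = 3.49e-09 and 5.71e-09).

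Glutamate-cysteine ligase, the rate-limiting enzyme of glutathione synthesis, consists of the catalytic subunit of *Gclc* and the modifier subunit of *Gclm*. *Gclc* (ENSMUSG00000032350, chromosome 9, 77754535 to 77794485) was at 102, 101 and 103 CPM in *WT*, 60.1, 57.7 and 57.7 in *KD1* and 136, 140.1 and 130.3 in *KD2*. The lines did not overlap, with *KD1* lowest and *KD2* highest. *Gclc* fell in *KD1*, with a log2 fold change of -0.80 (standard error 0.0555, edgeR adjusted p = 2.48e-08), and rose in *KD2*, with 0.41 (standard error 0.0544, edgeR adjusted p = 1.39e-05). The genes tested on chromosome 9 had a median of -0.11 in *KD1* and 0.15 in *KD2*, and the 22 within 2 Mb of *Gclc* had -0.01 and 0.14. *KD2* was above *KD1* by 1.21 (standard error 0.0554, edgeR adjusted p = 1.93e-10), or 2.32-fold.

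*Gclm* (ENSMUSG00000028124, chromosome 3, 122245557 to 122270732) was at 95.0, 97.0 and 99.0 CPM in *WT*, 174, 185 and 171 in *KD1* and 119.8, 124 and 108 in *KD2*. The lines again did not overlap, but here *KD1* was highest. In *KD1* the log2 fold change was 0.87 (standard error 0.0632, edgeR adjusted p = 4.38e-08) and 0.27 in *KD2* (standard error 0.0633, edgeR adjusted p = 0.00162). *Gclm* shares 3.92% of its 50-base exon windows with other genes, mostly *Ppia*, and is overlapped on the other strand by *Gm17494*, which had at most 126 counts in any library. The subunits therefore moved apart in *KD1* and together in *KD2*. The ratio of *Gclm* to *Gclc*, both in CPM per kb of exon, was 0.555, 0.577 and 0.576 in *WT*, 1.73, 1.92 and 1.77 in *KD1* and 0.527, 0.529 and 0.497 in *KD2*. *KD1* was 3.18-fold above *WT*, and *KD2* was at 0.909 of *WT*. No line overlapped another, and the exact two-sided permutation test gave p = 0.1 for each pair of lines, the smallest that 3 against 3 libraries allow.

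**Figure D2:**
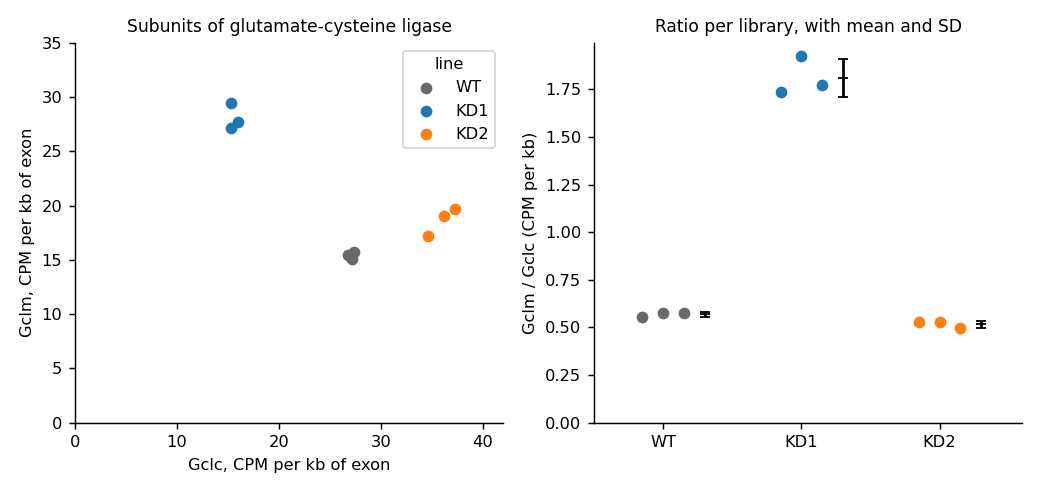
Left, *Gclm* against *Gclc* in each library, both in TMM-scaled CPM per kb of exon on linear axes from 0. Right, the ratio of *Gclm* to *Gclc* per library, with the mean and SD over 3 libraries of each line. *KD1* has the ratio 1.81 ± 0.0992 (SD, n = 3), *WT* 0.570 ± 0.0125 and *KD2* 0.518 ± 0.0179.

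*Txnrd1*, cytosolic thioredoxin reductase (ENSMUSG00000020250, chromosome 10, 82833951 to 82897712), was at 262, 263 and 253 CPM in *WT*, 346, 357 and 347 in *KD1* and 286, 281 and 290.1 in *KD2*. All libraries of both *KD* lines lay above *WT*, and *KD1* lay above *KD2*. In *KD1* the log2 fold change was 0.43 (standard error 0.0499, edgeR adjusted p = 4.69e-06) and 0.14 in *KD2* (standard error 0.0499, edgeR adjusted p = 0.0222). The small *KD2* rise lost its call without *KD2* replicate 1 (log2 fold change 0.14, edgeR adjusted p = 0.0569). *Srxn1*, sulfiredoxin, repairs overoxidized peroxiredoxins (ENSMUSG00000032802, chromosome 2, 152105516 to 152111376). It was at 78.0, 84.4 and 80.3 CPM in *WT*, 51.5, 55.1 and 56.9 in *KD1* and 95.3, 90.9 and 99.1 in *KD2*. Like *Gclc*, *Srxn1* was lowest in *KD1* and highest in *KD2*, without overlap. It fell in *KD1* with a log2 fold change of -0.57 (standard error 0.0627, edgeR adjusted p = 3.09e-06) and rose in *KD2* with 0.23 (standard error 0.0617, edgeR adjusted p = 0.00432). The chromosome 2 median was -0.16 in *KD1* and 0.14 in *KD2*, and that of the 54 genes within 2 Mb of *Srxn1* was -0.30 and -0.05.

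*G6pdx*, glucose-6-phosphate dehydrogenase, opens the pentose phosphate pathway and regenerates NADPH (ENSMUSG00000031400, X chromosome, 74409483 to 74429194). It was at 123, 138 and 133 CPM in *WT*, 179.7, 188 and 184 in *KD1* and 83.6, 85.6 and 84.8 in *KD2*. The lines did not overlap, with *KD1* highest and *KD2* lowest. *G6pdx* rose in *KD1* with a log2 fold change of 0.48 (standard error 0.0572, edgeR adjusted p = 6.20e-06) and fell in *KD2* with -0.64 (standard error 0.0581, edgeR adjusted p = 3.70e-07). The other 448 genes tested on the X chromosome had a median of -0.63 in *KD2*, and the 51 within 2 Mb of *G6pdx* had -0.62, so that *G6pdx* stood -0.01 from its chromosome. In *KD1* the X chromosome median was -0.09, which leaves *G6pdx* 0.58 above it. *Ikbkg* overlaps 13.6% of the exon length of *G6pdx* on the other strand and was at 56.7 ± 1.74 CPM (SD, n = 3) in *WT*, 69.9 ± 3.60 in *KD1* and 51.5 ± 5.11 in *KD2*. Of the exon windows of *G6pdx*, 6.46% also occur in *G6pd2*, which had at most 1 count in any library.

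**Figure D3:**
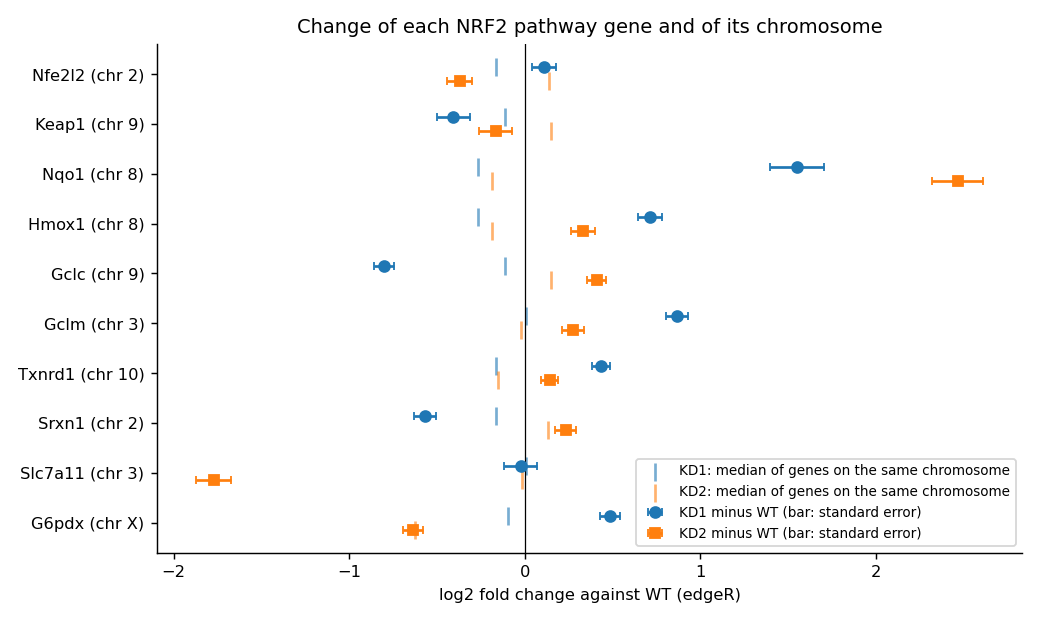
Log2 fold change against *WT* from edgeR (x axis) for each NRF2 pathway gene, with its standard error, in *KD1* (circles) and *KD2* (squares). Vertical ticks are the medians of the other genes tested on the same chromosome. *G6pdx* in *KD2* (-0.64) sits on its chromosome's tick (-0.63), while *Nqo1* (2.47) and *Slc7a11* (-1.77) in *KD2* lie far from theirs.

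The levels of different members were compared per kb of exon. In *WT* the order was *G6pdx* (42.7 ± 2.46 CPM per kb, SD, n = 3), *Txnrd1* (36.6 ± 0.780), *Srxn1*, *Gclc*, *Nfe2l2*, *Hmox1*, *Gclm*, *Keap1*, *Slc7a11* and *Nqo1*. Of neighbours in this order, only the ranges of *Nfe2l2* and *Hmox1* overlapped. In *KD1*, *Hmox1* and *Gclm* moved up to the third and the fourth place, at 38.9 ± 0.0182 and 28.1 ± 1.20 CPM per kb, and *Gclm* overlapped *Nfe2l2*. In *KD2*, *Txnrd1* led at 40.3 ± 0.622 CPM per kb, *Gclc* and *Srxn1* followed with overlapping ranges, *G6pdx* dropped to the fifth place at 27.5 ± 0.315, and *Nfe2l2* overlapped *Gclm*. *Slc7a11* was last in *KD2*, at 2.63 ± 0.422 CPM per kb, below *Nqo1*. In CPM, *Slc7a11* was above *Nqo1* in *KD2*, at 36.6 against 10.7. Its annotated exons merge to 13922 bases, and those of *Nqo1* to 1553.

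Beyond the 10 members, 7 lists of 110 further pathway genes were examined, of which 98 passed the expression filter. In *KD1*, 44 were higher and 29 lower at an adjusted p under 0.05, where 26.9% and 30.0% of all genes tested were. In *KD2*, 46 were higher and 30 lower, where 34.0% and 33.3% of all genes were. With a fold change above 2, 25 of the 98 (25.5%) passed in each line, against 16.8% and 21.2% of all genes. The lists were chosen with earlier results of these data known, so these comparisons with all genes are descriptions and not tests. The median log2 fold change of the 98 genes was 0.18 in *KD1* and 0.16 in *KD2*.

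**Figure D4:**
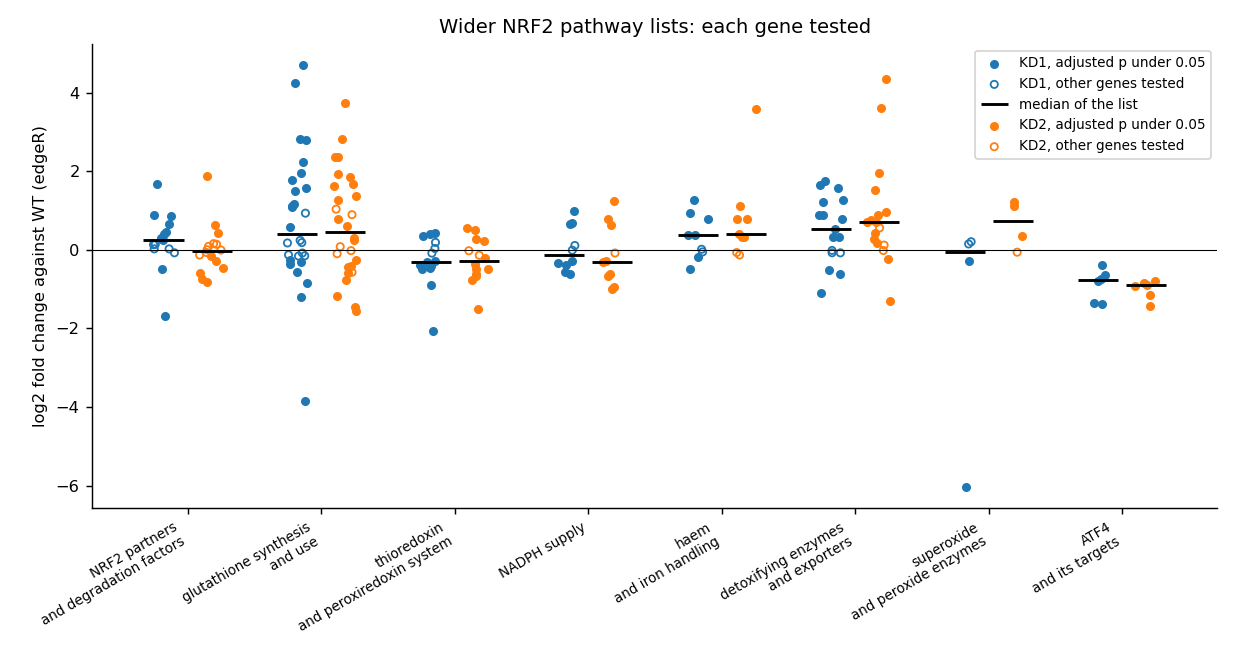
Log2 fold change against *WT* from edgeR (y axis) of each gene tested in 7 wider NRF2 pathway lists and in the ATF4 list, for *KD1* (blue) and *KD2* (orange). Filled points passed an adjusted p under 0.05, open points did not, and black bars are list medians. The ATF4 list lies wholly below 0 in each line, and the highest *KD2* points are *Aldh3a1* (4.35) and *Gstt1* (3.74). Genes with a mean log2 CPM of 1 or less are plotted but not named.

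Among 16 partners and degradation factors of NRF2, 9 rose and 2 fell in *KD1*, with a median of 0.26, and 3 rose and 6 fell in *KD2*, with a median of -0.04. Calls in either direction made up 68.75% of this list in *KD1* and 56.25% in *KD2*, against 56.9% and 67.2% of all genes tested. *Bach2*, a repressor related to BACH1, changed in opposite directions, from 2.49 ± 0.538 CPM (SD, n = 3) in *WT* to 0.780 ± 0.140 in *KD1* and 9.20 ± 1.11 in *KD2*. *Nfe2l3*, a relative of *Nfe2l2*, rose in *KD1* (log2 fold change 1.67, edgeR adjusted p = 9.73e-08), as did the small MAF gene *Maff* (0.88, edgeR adjusted p = 5.12e-07). *Nfe2l3* also rose in *KD2* (0.64, edgeR adjusted p = 0.00124), where *Maff* was at -0.13 (edgeR adjusted p = 0.190). In *KD2*, the small MAF gene *Mafk* (-0.83, edgeR adjusted p = 1.30e-06) and the mitochondrial phosphatase *Pgam5* (-0.75, edgeR adjusted p = 3.44e-08) fell, and *Gm26718* overlaps 58.1% of the exon length of *Pgam5* on the other strand. *Mafk* rose in *KD1* (0.26, edgeR adjusted p = 0.0171). *Bach1*, whose protein competes with NRF2 for its elements, was named after its values were seen. It was at 58.8 ± 0.874 CPM in *WT*, 107 ± 0.513 in *KD1* and 48.2 ± 1.47 in *KD2*, with log2 fold changes of 0.87 and -0.28 (edgeR adjusted p = 6.95e-09 and 3.83e-04).

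The 28 tested genes of glutathione synthesis and use had a median of 0.41 in *KD1*, 13 higher and 7 lower, and 0.45 in *KD2*, 14 higher and 8 lower. Together, 71.4% of these genes changed in *KD1* and 78.6% in *KD2*, against 56.9% and 67.2% of all genes tested. In *KD1* the microsomal transferase *Mgst2* rose from 1.45 ± 0.219 to 10.1 ± 1.20 CPM (SD, n = 3; edgeR adjusted p = 2.72e-09), and the glutaredoxin *Glrx* from 10.1 ± 0.630 to 39.4 ± 1.55 (edgeR adjusted p = 5.00e-11). In *KD2*, *Mgst2* rose (log2 fold change 1.27, edgeR adjusted p = 2.43e-05) and *Glrx* fell (-0.44, edgeR adjusted p = 4.96e-04). *Gstt1*, a theta-class glutathione transferase, rose in each line, from 1.43 ± 0.287 CPM to 9.94 ± 0.657 in *KD1* and 19.3 ± 3.60 in *KD2* (edgeR adjusted p = 1.20e-08 and 4.45e-10). The mu-class transferases *Gstm1* and *Gstm4* rose in *KD2*, with log2 fold changes of 2.83 and 1.94 (edgeR adjusted p = 6.27e-09 and 8.75e-07). In *KD1*, *Gstm4* also rose (1.16, edgeR adjusted p = 2.78e-04) and *Gstm1* was at 0.18 (edgeR adjusted p = 0.512). Of the windows of *Gstm1*, 18.9% also occur in other genes. *Gss*, glutathione synthetase, was named after its values were seen. Its log2 fold changes were -0.84 (*KD1*, edgeR adjusted p = 7.62e-07) and -0.02 (*KD2*, edgeR adjusted p = 0.834).

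Of 14 genes of the thioredoxin and peroxiredoxin system, 3 rose and 8 fell in *KD1*, and 4 rose and 8 fell in *KD2*, with medians of -0.30 and -0.29. The changed share of the list was 78.6% in *KD1* and 85.7% in *KD2*, against 56.9% and 67.2% of all genes tested. *Txnip*, which binds and inhibits thioredoxin, fell from 157 ± 5.58 CPM (SD, n = 3) in *WT* to 37.5 ± 0.908 in *KD1* and 92.5 ± 6.57 in *KD2* (edgeR adjusted p = 6.41e-12 and 1.30e-07), and *Gm15441* overlaps 19.4% of its exon length on the other strand. The stress-responsive sestrins *Sesn3* and *Sesn1* fell in *KD1* (log2 fold changes -0.90 and -0.48, edgeR adjusted p = 1.71e-07 and 4.79e-04). In *KD2*, *Sesn1* rose (0.49, edgeR adjusted p = 1.83e-04) and *Sesn3* was at -0.02 (edgeR adjusted p = 0.806). *Sesn2* fell in *KD1* (-0.46, edgeR adjusted p = 2.21e-04) and in *KD2* (-1.51, edgeR adjusted p = 2.98e-09). Mitochondrial thioredoxin, *Txn2*, fell in *KD1* (-0.39, edgeR adjusted p = 5.70e-04) and in *KD2* (-0.67, edgeR adjusted p = 3.56e-06).

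Of the 10 genes of NADPH supply, 3 rose and 5 fell in *KD1*, and 3 rose and 6 fell in *KD2*, with medians of -0.14 and -0.30. The changed share of the list was 80% in *KD1* and 90% in *KD2*, against 56.9% and 67.2% of all genes tested. *Pgd*, which follows *G6pdx* in the pentose phosphate pathway, rose in *KD1* from 115 ± 7.67 to 229 ± 4.06 CPM (SD, n = 3; edgeR adjusted p = 4.08e-08). Isocitrate dehydrogenase *Idh1* rose in *KD1* (log2 fold change 0.69, edgeR adjusted p = 3.42e-05). *Pgd* and *Idh1* also rose in *KD2* (0.78 and 0.63, edgeR adjusted p = 4.20e-07 and 6.47e-05). Malic enzyme, *Me1*, rose in each line (0.67 and 1.25, edgeR adjusted p = 1.64e-06 and 2.55e-09), and 22.9% of its windows also occur in other genes. *Pgls* and *Rpia*, enzymes of the pentose phosphate pathway, fell in *KD2* (-0.99 and -0.94, edgeR adjusted p = 1.65e-06 and 8.16e-08). They also fell in *KD1* (-0.57 and -0.61, edgeR adjusted p = 3.28e-04 and 6.38e-06). *Pgls* shares 18.9% of its windows with *Fam129c*.

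Of 9 genes of haem and iron handling, 5 rose and 2 fell in *KD1*, and 7 rose and 0 fell in *KD2*, with medians of 0.38 and 0.39. Calls in either direction made up 77.8% of this list in each line, against 56.9% of all genes tested in *KD1* and 67.2% in *KD2*. At an unadjusted p under 0.05, the lower genes in *KD2* numbered 0 in edgeR and 0 in DESeq2. The iron exporter *Slc40a1* rose from 0.745 ± 0.122 CPM (SD, n = 3) in *WT* to 1.79 ± 0.116 in *KD1* and 8.86 ± 0.579 in *KD2* (edgeR adjusted p = 6.79e-05 and 3.15e-10). *Blvrb*, a biliverdin reductase, rose in each line (log2 fold changes 0.93 and 1.12, edgeR adjusted p = 1.45e-04 and 1.95e-05). The haem transporter *Slc48a1* rose in each line (0.80 and 0.34, edgeR adjusted p = 4.34e-07 and 9.71e-04). *Ftl1*, ferritin light chain, rose in *KD2* (0.78, edgeR adjusted p = 4.57e-06), and 50.9% of its windows also occur in other genes. In *KD1*, *Ftl1* was at 0.01 (edgeR adjusted p = 0.906).

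Detoxifying enzymes and exporters had the highest list median in *KD1*, 0.53, with 11 of 17 tested genes higher and 3 lower, and a median of 0.70 in *KD2*, with 12 higher and 2 lower. Together, 82.4% of these genes changed in each line, against 56.9% of all genes tested in *KD1* and 67.2% in *KD2*. The aldehyde dehydrogenase *Aldh3a1* rose in each line, from 1.54 ± 0.351 CPM (SD, n = 3) in *WT* to 4.91 ± 0.492 in *KD1* and 32.0 ± 4.50 in *KD2* (edgeR adjusted p = 4.18e-06 and 4.85e-11). In *KD1*, the efflux pump *Abcg2* rose from 28.8 ± 2.73 to 97.1 ± 4.74 CPM (edgeR adjusted p = 1.05e-09). The aldose reductase *Akr1b3* rose there from 103 ± 4.96 to 248 ± 4.83 (edgeR adjusted p = 7.49e-10). Both also rose in *KD2* (log2 fold changes 1.53 and 0.27, edgeR adjusted p = 4.82e-09 and 0.00210). In *KD2*, the conjugate exporter *Abcc3* (log2 fold change 3.61, edgeR adjusted p = 1.67e-10) and the aldehyde oxidase *Aox1* (1.94, edgeR adjusted p = 8.50e-11) rose. In *KD1*, *Abcc3* fell (-1.10, edgeR adjusted p = 0.00143) and *Aox1* rose (0.34, edgeR adjusted p = 0.00249). Of 4 superoxide and peroxide enzymes, 0 rose and 2 fell in *KD1*, and 3 rose and 0 fell in *KD2*, with medians of -0.06 and 0.74. The changed share of these enzymes was 50% in *KD1* and 75% in *KD2*, against 56.9% and 67.2% of all genes tested. At an unadjusted p under 0.05, the higher enzymes in *KD1* numbered 1 in edgeR and 2 in DESeq2. The lower enzymes in *KD2* numbered 0 in edgeR and 0 in DESeq2. *Sod3*, extracellular superoxide dismutase, was at 48.3 ± 6.40 CPM in *WT*, 0.739 ± 0.228 in *KD1* and 105.1 ± 13.7 in *KD2* (edgeR adjusted p = 4.41e-12 and 6.38e-07). Catalase, *Cat*, rose in *KD2* with a log2 fold change of 1.21 (edgeR adjusted p = 3.01e-09). The mitochondrial *Sod2* fell in *KD1* (-0.28, edgeR adjusted p = 6.42e-04), with 21.0% of its windows also in other genes, and the cytosolic *Sod1* rose in *KD2* (0.36, edgeR adjusted p = 0.00547). *Sod1* was at 132 ± 6.92 CPM in *WT* and 170 ± 31.9 in *KD2* (median 153, highest 207), and its *KD2* value was 0.16 to 0.47 over 17 alternatives. In *KD1*, *Cat* was at 0.15 (edgeR adjusted p = 0.0754) and *Sod1* at 0.21 (edgeR adjusted p = 0.0928). *Sod2* was at -0.06 in *KD2* (edgeR adjusted p = 0.358).

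*Slc7a11* is also a known target of ATF4, the factor of the integrated stress response. *Atf4* fell from 571 ± 15.8 CPM (SD, n = 3) in *WT* to 435 ± 7.02 in *KD1* and 303 ± 22.0 in *KD2* (edgeR adjusted p = 6.25e-05 and 1.24e-08). All 6 genes of a short ATF4 list, *Atf4* included, were lower in each line, with medians of -0.76 and -0.90. Of all genes tested, 30.0% were lower in *KD1* and 33.3% in *KD2*. This list too was chosen with earlier results of these data known, so the comparison is a description only. The log2 fold change of *Slc7a11* was -0.02 in *KD1* (edgeR adjusted p = 0.856) and -1.77 in *KD2* (edgeR adjusted p = 3.00e-09). The part of ATF4 in the *Slc7a11* level was not tested.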

How the data were processed

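RNA was poly-A selected from 9 HC11 libraries, 3 each of *WT*, *KD1* and *KD2*, and sequenced in paired reads. The authors cleaned the reads with fastp, aligned them by HISAT2 to the GRCm38 build, and used featureCounts to assign them to the exons of each gene. The deposited table holds raw counts, 1 whole number for each gene and library. Strandedness and the handling of reads with several matches are not given in the sources used here. Lines were taken from the genotype labels, replicate numbers from the titles, and 0 columns were left without a sample.

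Counts were tested with edgeR 4.0.16 in R 4.3.3 (quasi-likelihood test, TMM scaling, expression filter on the 3 lines, 1 fit of 9 libraries, no block), with Benjamini-Hochberg adjustment over 15253 genes. A standard error is the log2 fold change divided by the root of its F statistic. Exon lengths, positions and overlaps came from GENCODE (GRCm38). The exon length merges all annotated exons of a gene, used or not in these cells, so orders and ratios between genes per kb depend on it. Alternatives were DESeq2 1.42.0, median-of-ratios scaling, library size alone, other filters, the 6 libraries compared, an adjusted p under 0.01, the replicate number as a block, and each library left out.

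The members and lists were chosen with earlier results of these data known. Of each wider list, the text names up to 3 genes per line with the largest change among those with an adjusted p under 0.05, libraries that do not overlap *WT* and a mean log2 CPM above 1. It also names *Vangl2*, *Atf4* and the genes most like *Nfe2l2* and the member of widest range.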

Additional observations from a re-analysis of the deposited data

Results flagged for a closer look

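All 10 genes were noted because their change against *WT* differed between the lines, by the direct test of *KD2* against *KD1* (edgeR adjusted p under 0.05). As both changes share the *WT* libraries, the log2 difference of the changes equals that of the lines. It was negative for *Slc7a11* (-1.75), *G6pdx* (-1.12), *Gclm* (-0.59), *Nfe2l2* (-0.48), *Hmox1* (-0.38) and *Txnrd1* (-0.29), and positive for *Gclc* (1.21), *Nqo1* (0.91), *Srxn1* (0.80) and *Keap1* (0.24). The call of *Keap1* was lost with DESeq2 (0.22, adjusted p = 0.0667), and without *KD1* replicate 1 (0.21), *KD1* replicate 2 (0.26), *KD1* replicate 3 (0.23) or *KD2* replicate 3 (0.14), with edgeR adjusted p = 0.0561 to 0.123. Of all genes tested, 67.8% differed between the lines.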

How the results depend on the processing

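The counts of members and of wider pathway genes that changed stayed within 1.5 times of those reported under every alternative, the libraries left out included. The 10 members in 3 comparisons gave 30 log2 fold changes under 17 alternatives each. Of these values, 491 kept their direction and their side of the threshold, 8 lost their call, 6 gained it and 5 reversed. All 5 reversals were of *Slc7a11* in *KD1*, a value near 0, with 5.84e-05 under median-of-ratios scaling, 0.0129 with at least 10 counts in every library, 0.0181 with the 6 libraries alone, 0.0487 without *WT* replicate 1 (-0.0437 to 0.0487 with each library left out in turn) and 0.0419 with *WT* replicate 1 and *KD2* replicate 3 both left out, a setting added after seeing the data. *Vangl2* in *KD2* (0.05) reversed to -0.0379 without *WT* replicate 1 (-0.0379 to 0.134 with each library left out) and to -0.104 with both left out. The lost calls were of *Keap1* between the lines and of *Txnrd1* in *KD2*, the latter also with no filter beyond 1 count (0.11, edgeR adjusted p = 0.254) and the 6 libraries alone (0.15, edgeR adjusted p = 0.0645). The cause was not tested. Scaling by library size alone moved the median of all genes in *KD2* against *WT* from 0.01 to 0.12, and in *KD2* against *KD1* from 0.02 to 0.14. With the replicate number as a block, 8 members changed in *KD1*, 9 in *KD2* and 10 between the lines, as without it. Deviations of same-numbered libraries from their line means had correlations of -0.065 to 0.079, and those of different-numbered libraries -0.101 to 0.107. No pairing by number was seen, which with 3 libraries per line cannot show that there was none.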

Other observations

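The log2 CPM of *Nfe2l2* and *Nqo1* over the 9 libraries was correlated with that of 11613 genes with a mean log2 CPM above 1. The libraries fall into 3 lines, so these values describe mainly line means and carry no test. Nearest to *Nfe2l2* were *Polr2b*, a subunit of RNA polymerase II (Pearson r = 0.989), *Ankrd40* (0.988) and *Anapc4*, a subunit of the anaphase-promoting complex (0.988). *Polr2b* was at 176 ± 3.19 CPM (SD, n = 3) in *WT*, 186 ± 3.52 in *KD1* and 153 ± 7.63 in *KD2*. Nearest to *Nqo1* were *Stat2*, which transmits type I interferon signals (0.995), *Ube2l6*, the conjugating enzyme of the ubiquitin-like protein ISG15 (0.995), and *Xaf1*, a binding partner of XIAP (0.995). *Stat2* was at 9.39 ± 0.989 CPM in *WT*, 17.98 ± 0.533 in *KD1* and 29.1 ± 1.09 in *KD2*, and *Xaf1* at 2.23 ± 0.523, 12.6 ± 0.769 and 35.5 ± 0.882 CPM. *Stat2*, like *Nqo1*, was lowest in *WT* and highest in *KD2*.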
